A study of Arabidopsis thaliana with 24 samples.

Results

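The response of NBR1-overexpressing roots to sulfur deficit was followed in 6 of the 24 arrays of the series, 3 of OX7.5 roots in sulfur deficit (-S) and 3 of OX7.5 roots in sufficient sulfur (nS), chosen by their labels alone. OX7.5 is 1 Arabidopsis thaliana line in the Col-0 background in which NBR1, fused at its C-terminal end to a TAP tag, is driven by the constitutive 35S promoter. Both groups therefore carry the transgene and differ in sulfur supply. They are set beside 6 arrays of roots of the parental line Col-0 (WT; 3 in -S and 3 in nS) and 6 arrays of OX7.5 shoots (3 in -S and 3 in nS). The methods describe hydroponic plants moved to -S medium for 4 days, whereas the labels mention pots of soil, and all labels give an age of 33 days. Labels without a mention of low sulphate were read as nS. The methods describe the replicates as independent biological ones. Each root sample is a whole organ, so fewer cells of a type and less RNA per cell cannot be told apart. The -S and the nS samples stand in separate runs of sample numbers, so a difference between runs, if there was one, cannot be told apart from the effect of sulfur supply.

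Plants take up sulfate with their roots, activate it with ATP sulfurylase to adenosine 5'-phosphosulfate (APS) and reduce it to sulfide, from which cysteine, methionine and glutathione are made. When sulfate is short, roots are known to raise uptake and to draw on sulfur stored in secondary compounds such as glucosinolates. NBR1 is a cargo receptor of selective autophagy. It binds ubiquitinated cargo and the ATG8 proteins that coat the growing autophagosome. Its own transcript has no probe set of its own in the array annotation, so the overexpression could not be checked here. By RT-qPCR the paper found more NBR1 transcript in OX7.5 than in the wild type. It also found that -S raised this transcript in both organs of each line.

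Transcripts were read on Affymetrix Arabidopsis Gene 1.1 ST arrays as log2 probe-set signals, in which a difference of 1 is a doubling. Of 28583 probe sets, 16746 carried exactly 1 gene, and the brightest probe set of each gene gave 16554 genes. Array medians lay between 2.58 and 2.63 in the 12 root arrays and between 3.92 and 3.97 in the 12 shoot arrays. Levels were therefore tested only within an organ, and the marker signals below are set beside those of shoots as a description. Replicate arrays of OX7.5 roots correlated between 0.986 and 0.988. Those of WT roots correlated between 0.988 and 0.990 in -S and less closely, between 0.973 and 0.984, in nS. The 4 measured members of a list of 30 leaf markers had linear signals that summed to between 14.9 and 19.5 in -S and between 21.4 and 22.1 in nS roots of OX7.5, against at least 3762 in OX7.5 shoots. Of 13 listed root markers 2 were measured. They were EXPA7, a root hair expansin, and PYK10, a root beta-glucosidase. Their sum was between 405 and 623 in -S and between 1180 and 1328 in nS roots, and at most 164 in shoots. In roots PYK10 made up most of this sum and had a log2 change of -1.36 in -S, while that of EXPA7 was 0.11. The lower sum in -S is therefore that of 1 gene.

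A gene was called when its -S and nS values differed at least 1.5-fold with a Benjamini-Hochberg adjusted p under 0.05 in limma, fitted over all 24 arrays. In OX7.5 roots 1290 genes (7.79% of those tested) rose and 1175 (7.1%) fell in -S. With the thresholds of the methods, the same fold change and an unadjusted p under 0.05, 1349 rose and 1232 fell. The response was deeper on the rising side: 42 genes rose by at least 3 on the log2 scale and 13 fell by that much, while 11 rose by at least 5 and 0 fell so far. The 3 -S and the 3 nS arrays did not overlap for 2419 of the 2465 called genes. The thresholds themselves favour genes without overlap, so this count adds no support to the calls. The median change over all genes was -0.02. Of the 1290 risen genes 442 had an nS mean under the root median of 2.59, among them 31 of the 42 that rose by at least 3. No detection calls accompany the values, so the size of a rise that starts from so low a signal, or of a fall that ends there, is uncertain.

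The largest rise of all was that of AT2G41730, a locus that the gene table does not name, with log2 signals of 8.34, 9.03 and 8.42 in -S and 0.42, 1.14 and 0.98 in nS. Its log2 fold change was 7.74 (standard error 0.26, limma adjusted p = 6.0e-17). It belongs to a list of 18 genes of mitochondrial retrograde signalling and alternative respiration, of which 6 were measured. All 6 rose, with a median change of 4.99, against the background of 7.79% of genes called upwards. NDB4, an external NAD(P)H dehydrogenase of the mitochondrial inner membrane, had values of 6.55, 6.37 and 6.65 in -S and of 1.67, 1.16 and 1.52 in nS, and rose by 5.07 (standard error 0.19, adjusted p = 4.5e-16). NDB2, a dehydrogenase of the same family, started from a brighter signal, with 7.44, 7.29 and 7.33 in -S and 3.84, 3.74 and 3.91 in nS, and rose by 3.52 (standard error 0.21, adjusted p = 5.8e-12). For each of these 3 genes the lowest -S array lay more than 3 log2 units above the highest nS array. The family is not moved as a whole, since NDB3 and the plastid enzyme NDC1 had log2 differences of 0.21 and -0.07, and neither was called. The remaining members of the list, AT2G21640, AT5G09570 and AT5G51440, rose by 5.02, 4.97 and 4.25.

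**Figure D1:**
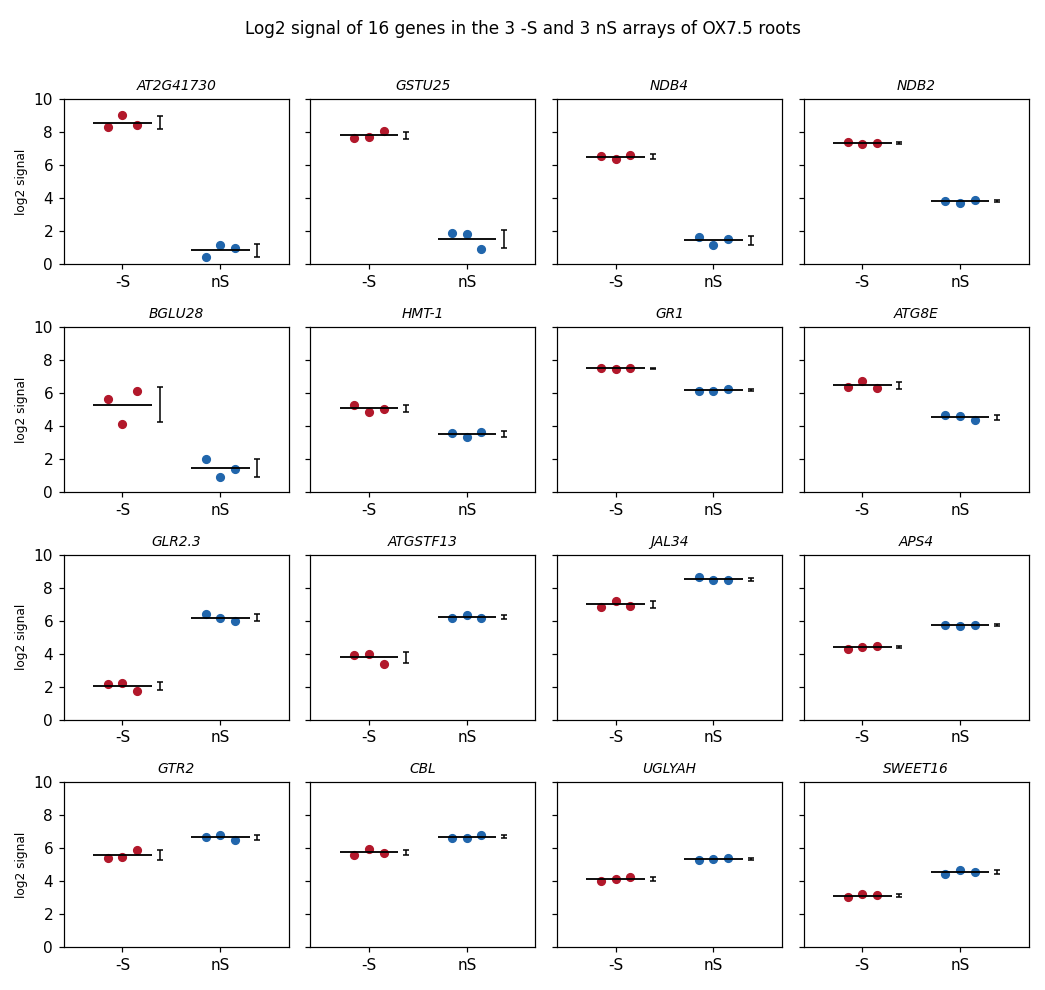
Log2 probe-set signal (y axis) of 16 genes in the 3 -S (left, red) and 3 nS (right, blue) arrays of OX7.5 roots. Points are arrays, horizontal lines are means, and the bar beside each group is ± 1 SD. In all 16 genes the arrays of the groups do not overlap, and BGLU28 has the widest spread in -S, between 4.13 and 6.11.

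Genes that make foreign or reactive compounds harmless formed the next group of large rises. GSTU25, a glutathione S-transferase of the tau class, had signals of 7.68, 7.71 and 8.07 in -S and of 1.89, 1.86 and 0.92 in nS, a rise of 6.27 (standard error 0.24, limma adjusted p = 4.5e-16). Its family did not move in one direction. Of 14 measured glutathione S-transferases 2 rose and 2 fell (14.3% each), with a median of -0.16. Over all genes the shares were 7.79% upwards and 7.1% downwards. GSTU22 rose by 2.81. GSTU26, a neighbour of GSTU25 in the family numbering, fell by 1.91, and ATGSTF13 of the phi class fell by 2.45, with 3.95, 4.01 and 3.37 in -S and 6.20, 6.33 and 6.14 in nS. Another family attaches sugars to small compounds. Of 51 measured UDP-glycosyltransferases, gathered after their values had been seen, 7 rose (13.7%) and 0 fell, with a median of -0.08. UGT73B4 led the rises (5.56, 5.02 and 5.69 in -S, 1.29, 1.02 and 1.32 in nS, a rise of 4.21, standard error 0.29). Those 7 include 4 of the UGT73B subfamily, and its remaining measured member, UGT73B1, had a change of 0.15 that did not pass. Of the 16 genes listed for xenobiotic detoxification 7 were measured and 5 rose (71.4%), with the loci AT2G04050 and AT2G04070 at the top (6.82 and 5.61).

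Among 64 measured class III peroxidases, secreted enzymes that cross-link or loosen the cell wall, 10 rose and 9 fell. AT5G39580 was the highest riser (7.31, 6.63 and 7.28 in -S, 2.54, 2.65 and 2.95 in nS, a rise of 4.36, standard error 0.21), followed by PRX52 with 3.49. AT3G03670 showed the largest fall of the family, with 4.05, 4.37 and 3.93 in -S and 6.41, 5.99 and 5.94 in nS, a fall of 1.99 on the log2 scale (standard error 0.16). The median of the family was 0.17, so the list holds a share of risen genes (15.6%) and of fallen genes (14.1%) that are each about double the shares over all genes, with no common direction.

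Few genes of sulfur uptake and reduction could be read. No sulfate transporter had a probe set of its own, and 2 of 12 listed markers of sulfur deficit did. BGLU28, a beta-glucosidase used as such a marker, had signals of 5.67, 4.13 and 6.11 in -S and of 2.02, 0.90 and 1.41 in nS. It rose by 3.86 (standard error 0.34, limma adjusted p = 7.0e-09), with the lowest -S array well above the highest nS array. AT1G04770, the other marker, rose by 1.0 (5.59, 5.19 and 5.10 in -S, 4.42, 4.08 and 4.38 in nS, standard error 0.19, adjusted p = 0.00028). Of 27 listed genes of sulfate assimilation 4 were measured. The ATP sulfurylase genes moved apart: APS4 fell by 1.33 (4.31, 4.43 and 4.46 in -S, 5.75, 5.68 and 5.77 in nS, standard error 0.17, adjusted p = 1.6e-06). APS3 rose by 0.79 (3.47, 3.93 and 4.31 in -S, 3.20, 3.46 and 2.69 in nS, standard error 0.25, adjusted p = 0.026), and its -S and nS arrays nearly touched. The call for APS3 was lost without -S replicate 2 (adjusted p = 0.0699), -S replicate 3 (adjusted p = 0.16) or nS replicate 3 (adjusted p = 0.166). The sulfite reductase gene SIR and the methionine gamma-lyase gene MGL had log2 differences of -0.18 and 0.54, and neither was called, and without -S replicate 2 MGL was called (0.74, adjusted p = 0.0364).

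Downstream of cysteine more members were measured. These 14 genes of methionine, sulfur transfer and thiol repair were gathered from the gene table after their values had been seen. Of them 8 rose (57.1%) and 2 fell (14.3%), against 7.79% and 7.1% of all genes. CBL, the cystathionine beta-lyase that leads from cysteine to methionine, fell by 0.94 on the log2 scale (5.63, 5.95 and 5.73 in -S, 6.65, 6.66 and 6.82 in nS, standard error 0.14, limma adjusted p = 1.6e-05). HMT-1, a homocysteine methyltransferase that makes methionine with a methyl group from S-methylmethionine, rose by 1.54 (5.29, 4.86 and 5.04 in -S, 3.57, 3.33 and 3.66 in nS, standard error 0.15, adjusted p = 5.4e-08). In both genes the groups were more than 0.6 log2 units apart. GR1, a glutathione reductase, rose by 1.32 and varied little among replicates (7.5, 7.45 and 7.53 in -S, 6.14, 6.12 and 6.27 in nS). The rhodanese-like sulfurtransferase gene STR18 rose by 0.92. SUFE2, a protein of iron-sulfur cluster assembly, rose by 1.0 from an nS mean under the root median. SAL2 and HL, members of the SAL phosphatase family that acts on 3'-phosphoadenosine 5'-phosphate, rose by 0.80 and 0.75. Methionine sulfoxide reductases were split, as MSRB3 and MSRB8 rose by 0.77 and 0.99, MSRB5 fell by 0.65 on the log2 scale, and MSRA5, MSRB4, MSRB6 and MSRB9 did not pass. The call for MSRB8 was lost without -S replicate 3 (adjusted p = 0.103).

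Glucosinolates are sulfur-rich defence compounds. Of 42 listed genes of their synthesis and transport 6 were measured. GTR2, a glucosinolate importer, was the 1 that was called (16.7%, against 7.1% of all genes called downwards). Its signals were 5.40, 5.46 and 5.93 in -S and 6.71, 6.8 and 6.50 in nS, a fall of 1.07 on the log2 scale (standard error 0.16, limma adjusted p = 1.4e-05), while its relative GTR1 had a change of 0.12 that did not pass. UGT74B1, which adds glucose to thiohydroximates, had a change of -0.56 (adjusted p = 0.017), just short of the fold threshold. It was called without -S replicate 3 (-0.62, adjusted p = 0.0229) or without nS replicate 1 (-0.75, adjusted p = 0.00236). AT2G31790, GSTU20 and AOP3 had log2 differences of -0.28, 0.25 and 0.01, and none was called. The median of the 6 was -0.14. In WT roots 3 of the 6 were called downwards, with a median of -0.52. The change did not differ between the lines at an adjusted p under 0.05 for any of the 6. The paper lists glucosinolate biosynthesis as overrepresented among genes lowered in roots of both lines, which these 6 cannot test.

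PYK10 is the main beta-glucosidase of ER bodies, spindle-shaped compartments of root cells that keep the enzyme apart from its substrates. Its signals were 8.61, 9.24 and 8.85 in -S and 10.19, 10.23 and 10.36 in nS, a change of -1.36 (standard error 0.48, limma adjusted p = 0.048). This call was lost when any 1 of the 6 arrays was left out, with an adjusted p between 0.0587 (without -S replicate 2) and 0.155 (without -S replicate 1). Of 10 measured genes of ER bodies and PYK10-associated lectins, a group gathered after the values had been seen, 7 fell (70%) and 0 rose. The median was -0.94, and 7.1% of all genes fell. NAI1, the transcription factor needed for ER bodies, fell by 1.03 on the log2 scale (2.27, 2.15 and 1.93 in -S, 3.74, 3.04 and 2.67 in nS), and NAI2, a structural protein of ER bodies, fell by 1.25 (7.27, 7.75 and 7.43 in -S, 8.71, 8.71 and 8.78 in nS). The jacalin-related lectin JAL34 fell by 1.53 (6.84, 7.21 and 6.92 in -S, 8.63, 8.45 and 8.49 in nS). In these 3 genes every -S array lay below every nS array. The calls were lost for NAI2 without -S replicate 1 (adjusted p = 0.0565), for JAL33 without nS replicate 3 (adjusted p = 0.0503), and for JAL22 without -S replicate 1 (adjusted p = 0.0501) or nS replicate 3 (adjusted p = 0.0776). BGLU21, BGLU22 and JAL23 had log2 differences of -0.17, -0.33 and -0.13, and none was called.

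**Figure D2:**
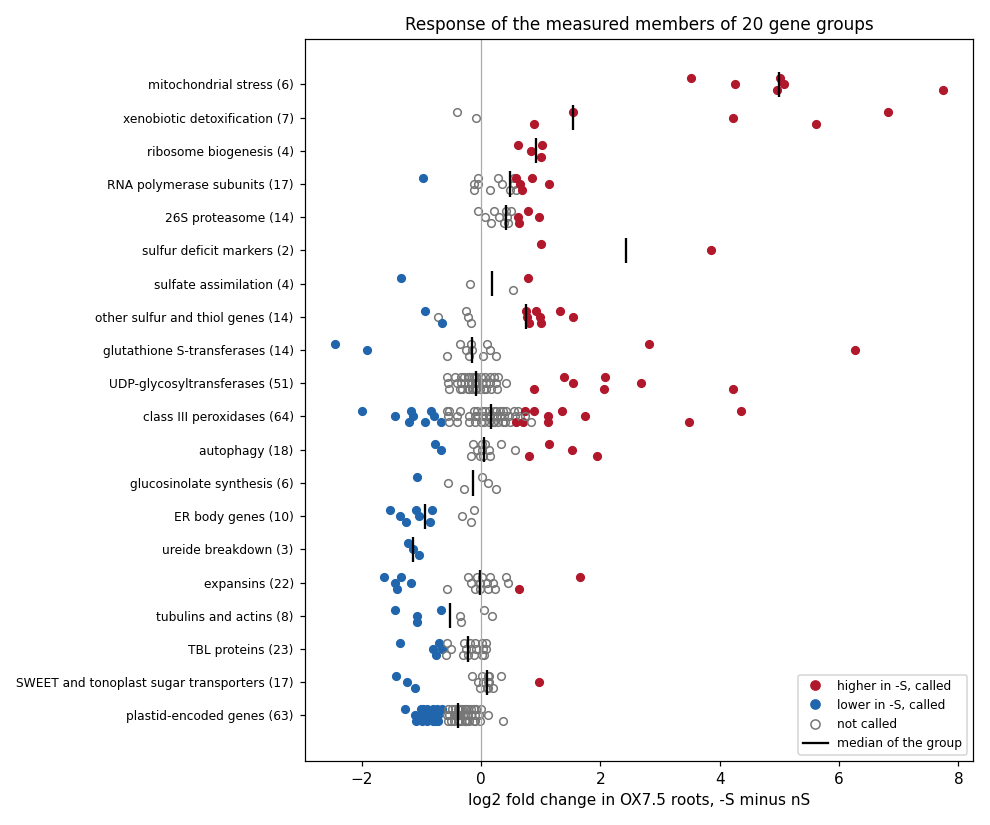
Log2 fold change (x axis, -S minus nS in OX7.5 roots) of each measured member of 20 gene groups (rows, with the number of members measured). Filled points passed the test upwards (red) or downwards (blue), open points did not, and the vertical bar is the median. Mitochondrial stress genes lie furthest to the right (median 4.99) and ureide breakdown genes furthest to the left (median -1.14).

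The machinery to which NBR1 belongs moved in part. Of 42 listed autophagy genes 18 were measured, 4 rose (22.2%) and 2 fell (11.1%), and the median was 0.05. The shares over all genes were 7.79% upwards and 7.1% downwards. All 4 risen genes encode ATG8, the ubiquitin-like protein that NBR1 binds on the autophagosome. ATG8E rose by 1.94 (6.38, 6.72 and 6.29 in -S, 4.64, 4.59 and 4.37 in nS, standard error 0.25, limma adjusted p = 2.1e-06), ATG8B by 1.53 (4.67, 5.02 and 4.69 in -S, 2.97, 3.55 and 3.27 in nS), and ATG8H by 1.14 (5.09, 5.59 and 5.23 in -S, 4.48, 4.04 and 3.99 in nS). APG8A rose by 0.80, and its call was lost without -S replicate 2 (0.65, adjusted p = 0.0858). The other measured members of the ATG8 family, ATG8D, APG8H, ATG8F, ATG8C and ATG8G, had log2 differences of 0.57, 0.13, 0.07, 0.01 and -0.14, and none was called. Both fallen genes are loci listed as kinases of the ATG1 family. AT2G37840 fell by 0.77 on the log2 scale (3.86, 3.6 and 4.03 in -S, 4.61, 4.59 and 4.58 in nS). AT1G49180 fell by 0.66 and lost its call without any 1 of the 6 arrays, with an adjusted p between 0.0539 (without nS replicate 1) and 0.172 (without nS replicate 2).

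Protein breakdown by the proteasome and the making of ribosomes were both on the rising side. Of 14 measured 26S proteasome genes 4 rose (28.6%, against 7.79% of all genes) and 0 fell. A positive change was seen in 13, and the median was 0.43. RPN12a, a lid subunit, rose by 0.78 (7.68, 7.77 and 7.61 in -S, 6.99, 6.78 and 6.96 in nS, standard error 0.11, limma adjusted p = 1.2e-05), and AT3G26340 rose by 0.97. The calls of the other 2, AT5G23540 and AT4G19006, lay near the fold threshold. They were lost without nS replicate 1 for AT5G23540 (0.56) and without -S replicate 2 (0.58) or nS replicate 3 (0.52) for AT4G19006. All 4 measured genes of 9 listed for nucleolar ribosome biogenesis rose, by 0.62 to 1.02. AT5G27120, the brightest of them, had 8.04, 8.11 and 8.49 in -S and 7.43, 7.01 and 7.19 in nS. The call for AT3G05060, the smallest rise, was lost without -S replicate 3 (adjusted p = 0.0725) or nS replicate 2 (adjusted p = 0.0531).

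Of 6 measured genes of ribosome assembly and RNA processing 4 rose (66.7%) and 0 fell, with a median of 1.01. This group and the RNA polymerases were gathered after the values had been seen. YAO, a nucleolar protein, rose by 1.3 (5.25, 5.21 and 5.34 in -S, 3.87, 3.94 and 4.09 in nS, standard error 0.18, limma adjusted p = 7.7e-06). The exosome genes RRP41 and RRP41L rose by 1.36 and 0.97. RBL rose by 1.06. RRP45a, a further exosome gene, had a change of 0.32 that did not pass. Of 17 measured RNA polymerase subunits 5 rose (29.4%) and 1 fell (5.88%), against 7.79% and 7.1% of all genes. NRPA1 and NRPA2, the largest subunits of RNA polymerase I, which transcribes ribosomal RNA, rose by 0.85 and 0.64. NRPA2 was not called without -S replicate 3 (0.54, under the fold threshold). NRPB8B rose by 0.68. NRPC2, of RNA polymerase III, rose by 0.59, just past the fold threshold, and lost its call without nS replicate 2 (adjusted p = 0.134) or nS replicate 1 (adjusted p = 0.0621) or any 1 -S array (adjusted p between 0.0516 and 0.0871). NRPB12, a small subunit, rose by 1.13 with 6.93, 6.93 and 6.93 in -S against 5.70, 5.93 and 5.77 in nS. The single fallen gene, NRPD2B, had a change of -0.98 and lost its call without nS replicate 2 (adjusted p = 0.0933). For the group the lowest to the highest change was -0.98 to 1.13, with a median of 0.48.

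The falls were led by GLR2.3, a glutamate receptor-like channel, with 2.14, 2.21 and 1.74 in -S and 6.41, 6.16 and 6.01 in nS, a fall of 4.16 on the log2 scale (standard error 0.20, limma adjusted p = 7.4e-14). Its neighbour GLR2.2 fell by 2.26 (3.38, 4.26 and 3.83 in -S, 6.41, 5.97 and 5.87 in nS). Of 9 measured genes of this family, gathered after their values had been seen, 3 fell (33.3%, against 7.1% of all genes) and 0 rose. GLR3.6 (-0.67) was the third, and the family median was -0.34. The other 14 of the 15 largest falls are loci without a name in the gene table. AT2G22122, which held 2.47, 2.55 and 2.4 in -S and 6.72, 6.68 and 6.45 in nS, fell by 4.14, and AT5G14120 and AT4G29905 followed with falls of 4.0 and 3.97. All 15 had nS means of at least 4.85, and 8 of the 15 had a -S mean under the root median.

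Genes for growth of the cell wall and the cytoskeleton were found among smaller falls. Of 22 measured expansins, which loosen the wall, 5 fell (22.7%) and 2 rose (9.09%), against 7.1% and 7.79% of all genes. EXPB3 fell by 1.63 on the log2 scale (5.72, 5.84 and 6.39 in -S, 7.40, 7.72 and 7.74 in nS, standard error 0.36, limma adjusted p = 0.0016), and EXPB2, EXPA15, EXPB1 and EXPA4 fell by 1.45, 1.41, 1.35 and 1.17. EXLB1 rose by 1.65 and EXPA9 by 0.64. The root hair expansins EXPA7 and EXPA18 had log2 differences of 0.11 and 0.14, and neither was called. Of 8 measured tubulin and actin genes 4 fell (50%) and 0 rose. TUB1 fell by 1.44 (2.31, 2.58 and 2.07 in -S, 3.85, 3.55 and 3.87 in nS), TUB6 by 1.08 and ACT11 by 1.07, while TUB5 fell by 0.67 and lost its call without nS replicate 3 (adjusted p = 0.0565). Of 23 measured TBL genes, a family that acetylates wall polysaccharides, 5 fell (21.7%) and 0 rose, namely TBL36, TBL33, TBL19, TBL25 and TBL39. TBL33 fell by 0.81 and was the 1 of the 5 that kept its call whichever array was left out. TBL36, with the largest change (-1.35), lost its call without any 1 of the 6 arrays (adjusted p between 0.0645 and 0.124), TBL39 (-0.65) without -S replicate 1 or 3 or nS replicate 1 or 2 (adjusted p between 0.0793 and 0.115), and TBL19 (-0.75) and TBL25 (-0.71) without nS replicate 1 (adjusted p = 0.053 and 0.0698). These 3 families were gathered after their values had been seen, and their medians were -0.02, -0.51 and -0.23.

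Genes of ureide breakdown and of sugar transport held further falls. All 3 measured enzymes that break down purines by way of ureides fell, with a median of -1.14, and 7.1% of all genes fell. UGLYAH, which releases the last ammonia from ureidoglycolate, fell by 1.22 on the log2 scale (4.05, 4.13 and 4.27 in -S, 5.31, 5.37 and 5.44 in nS, standard error 0.14, limma adjusted p = 5.9e-07). ALN, the allantoinase, fell by 1.14 (5.03, 4.82 and 4.83 in -S, 6.06, 6.09 and 5.93 in nS) and AAH, the allantoate amidohydrolase, by 1.03 (3.80, 3.09 and 3.5 in -S, 4.44, 4.53 and 4.51 in nS). In all 3 the groups stood apart. Among 17 measured SWEET and tonoplast sugar transporters 3 fell and 1 rose. All 3 fallen genes, SWEET16 (-1.43), SWEET17 (-1.24) and TMT1 (-1.11), encode transporters of the vacuole membrane, and SWEET2, also of the vacuole, rose by 0.97. SWEET16 had 3.04, 3.21 and 3.16 in -S and 4.44, 4.71 and 4.56 in nS. Both families were gathered after their values had been seen, and the median of the sugar transporters was 0.11.

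Further families that were gathered after their values had been seen gave rises and falls side by side. Of 23 measured beta-glucosidases 3 rose, BGLU28, BGLU25 and BGLU40, and 3 fell, PYK10, BGLU47 and BGLU44, with a median of -0.01. Each count is 13% of the family, against 7.79% upwards and 7.1% downwards over all genes. BGLU44 fell by 1.13 on the log2 scale (4.1, 3.53 and 3.83 in -S, 4.50, 5.16 and 5.20 in nS, standard error 0.18, limma adjusted p = 5.1e-05). BGLU25 rose by 1.06 with little spread in -S (4.99, 5.01 and 4.92, against 3.71, 3.93 and 4.1 in nS). Of 6 measured calmodulin-like proteins, which bind calcium, CML41, CML37 and CML23 rose by 1.49, 1.08 and 0.63, and CML42 and CML43 fell by 0.68 and 0.64. All 5 had nS means under the root median. The calls were lost for CML23 without -S replicate 2 (adjusted p = 0.143) or nS replicate 1 or 2 (adjusted p = 0.0667 and 0.0789), for CML42 without -S replicate 1 (-0.53) and for CML43 without nS replicate 3 (-0.51).

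Of 13 measured transporters of the NPF family, to which the glucosinolate importers belong, 4 fell, 0 rose and 9 were not called, with a median of -0.07. This family, the carboxypeptidases and the bZIP factors were also gathered after their values had been seen, and the shares over all genes were 7.79% upwards and 7.1% downwards. NAXT1, which releases nitrate from roots, fell by 1.17 on the log2 scale (4.98, 5.18 and 5.55 in -S, 6.35, 6.38 and 6.49 in nS, standard error 0.24, limma adjusted p = 0.00072), and its groups stood apart. Besides GTR2, AT2G26690 fell by 0.91 and AT1G33440 by 0.67, a call lost without -S replicate 1 or 2 or nS replicate 1 or 2 (adjusted p between 0.0748 and 0.189). Of 32 serine carboxypeptidase-like proteins 6 fell and 1 rose, led by SCPL27 (-1.14, 3.28, 3.57 and 3.47 in -S, 4.46, 4.73 and 4.55 in nS). Of 17 bZIP transcription factors 1 rose (5.88%) and 2 fell (11.8%), with a median of 0.03, so these counts lay near the shares over all genes. bZIP58 fell by 2.24 (2.42, 3.84 and 3.48 in -S, 5.67, 5.02 and 5.79 in nS) and BZIP24 by 0.99. Of 26 cytochromes P450 found by symbol or synonym 2 rose and 2 fell (7.69% each), with a median of 0.01. These shares lay near those over all genes. A gene known only by its locus is missed by such a search, and 1764 genes carried another symbol. With dim genes left out 4 members remained, with a median of 0.51. The paper lists cytochrome P450 as overrepresented among genes lowered in roots of both lines, which these 26 cannot test. The 4 called genes of the 26 belong to the CYP71B subfamily. CYP71B34 and CYP71B26 fell by 1.55 and 1.43, and CYP71B23 and CYP71B6 rose by 0.68 and 0.61. The rises fell short of the fold threshold for CYP71B23 without -S replicate 2 (0.53) and for CYP71B6 without -S replicate 3 (0.52) or nS replicate 1 (0.57).

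Falls among plastid-encoded transcripts were placed close together along the plastid genome. Of 63 plastid genes, gathered after their values had been seen, 61 had a negative change in OX7.5 roots. Among the 63, 19 fell (30.2%, against 7.1% of all genes) and 0 rose. Their median was -0.39, against -0.02 over all genes. In the order of the plastid genome, 17 of the 19 fallen genes stood in 2 stretches. One ran from rbcL to petG and held 11 called genes with psaI (-0.56, under the fold threshold) among them. The other ran from psbB to petD and held 6 called genes in an unbroken row. Within it psbB, a core antenna protein of photosystem II, had 7.22, 7.12 and 7.31 in -S and 8.31, 8.23 and 8.09 in nS, a fall of 1.0 on the log2 scale (standard error 0.11, limma adjusted p = 4.8e-07). The remaining 2, psbM and psbZ, are neighbours as well. In WT roots 40 of the 63 had a negative change and the median was -0.11. The 4 measured leaf markers, low in all roots, had a summed signal that was lower in -S in OX7.5 roots and overlapped in WT roots. It was between 14.9 and 19.5 in -S and between 21.4 and 22.1 in nS in OX7.5 roots, against between 18 and 21.6 in -S and between 18 and 19.998 in nS in WT roots. None of the 4 was called, and their part in the plastid values was not tested. The response differed between the lines for 1 of the 63 at an adjusted p under 0.05 (rbcL), and for 30 at an unadjusted p under 0.05. Over all 16554 genes these numbers were 10 and 1596. Plastid transcripts need not carry a poly(A) tail, and how the RNA was primed is not given in the sources used here.

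**Figure D3:**
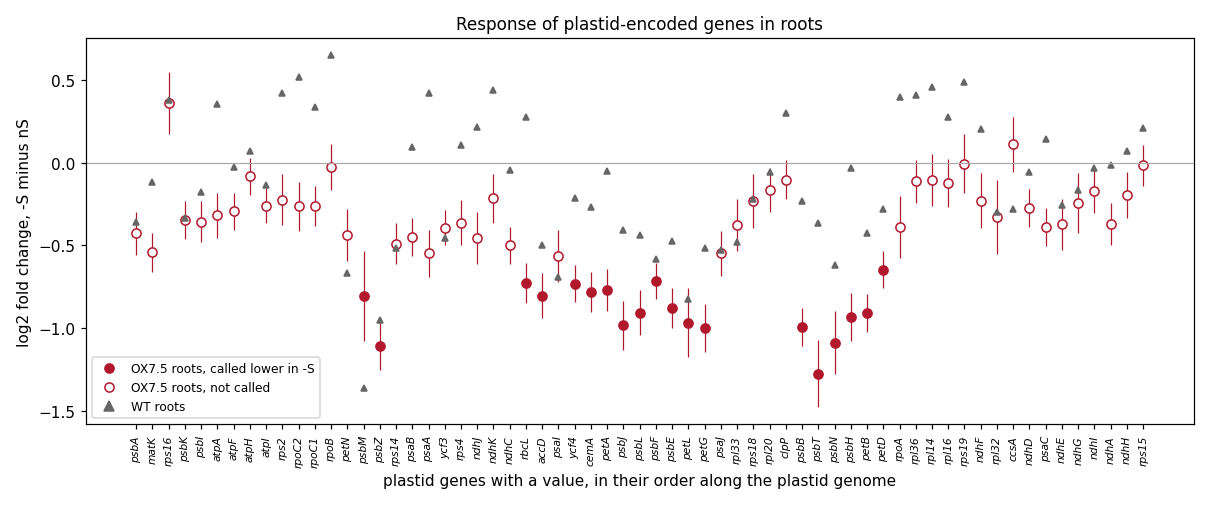
Log2 fold change (y axis, -S minus nS) of 63 plastid-encoded genes in the order of the plastid genome (x axis). Circles are OX7.5 roots with their standard errors, filled where the fall was called, and triangles are WT roots. The filled circles gather from rbcL to petG and from psbB to petD.

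Neighbouring genes were compared for shared calls, as a description with no test. Among 10256 pairs of adjacent protein-coding genes with a value each, the neighbour of a risen gene had itself risen in 14.6% of cases, against 7.76% of all genes in such pairs. For fallen genes the share was 10.6% against 7.07%, and for genes that rose at least 4-fold it was 12.5% against 0.78%. Stretches of 3 or more adjacent risen genes numbered 10, and those of fallen genes 5. The longest held 7 risen genes, AT1G13470 to AT1G13520, with changes of 1.04 to 2.65 in OX7.5 roots and of 0.74 to 2.92 in WT roots, where all 7 were called as well. In OX7.5 shoots 1 of the 7 was called. A stretch of 3, AT2G18180, AT2G18190 and AT2G18193, held the larger rises, from 3.76 to 5.80. Adjacent genes can be copies of each other. Whether a probe set also reads a neighbouring copy was not tested.

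The response of OX7.5 roots was set against that of WT roots to ask whether it differed between the lines. With 1 overexpressing line, an effect of excess NBR1 cannot be told apart from other traits of that line or from the tag. Across 16554 genes the changes in the lines had a Pearson correlation of 0.84, given as a description, since genes share their arrays and are not independent replicates. In WT roots 1524 genes (9.21%) rose and 1192 (7.2%) fell. Of the genes that rose in OX7.5 roots 73.9% were also called upwards in WT roots, and these made up 62.5% of the WT rises. For the falls these shares were 59.5% and 58.6%. A call in one line without a call in the other does not show that the lines differ. Tested directly as the line difference of the -S response, 10 genes (0.0604%) passed at an adjusted p under 0.05, 6 with a higher and 4 with a lower change in OX7.5, and 1596 passed at an unadjusted p under 0.05. This number was unstable. It was 0 in a fit to root arrays alone and 26 with trended, robust moderation, and after another quantile normalization 7 were higher and 2 lower. Leaving out 1 array gave between 0 and 85 genes. It was 0 without OX7.5 nS replicate 2 or 3, WT -S replicate 2 or WT nS replicate 1, and 85 without WT nS replicate 3. None of the 30 largest rises and falls of OX7.5 roots was among the 10.

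In 6 of those 10 genes the change in OX7.5 roots did not pass the test and that in WT roots did. For AT3G20850 the signals in OX7.5 roots were 2.06, 1.84 and 1.89 in -S and 2.2, 2.05 and 1.92 in nS, and in WT roots they were 1.73, 1.1 and 1.42 in -S and 2.77, 2.94 and 2.74 in nS. The line difference was 1.27 (standard error 0.21, limma adjusted p = 0.0212). The WT nS arrays were the high ones. AT2G07708 had the reverse pattern, with 9.37, 9.19 and 9.65 in -S and 9.51, 9.38 and 9.38 in nS in OX7.5 roots, against 9.88, 9.78 and 9.38 in -S and 7.72, 8.29 and 8.59 in nS in WT roots, a difference of -1.49 (standard error 0.24, adjusted p = 0.0212). AT3G14340, AT2G47150, AT5G18850 and AT5G66840 were the other 4, with differences of 1.67, 1.31, 1.26 and -1.23. Both AT5G40590 and AT2G16660 rose in both lines and rose further in OX7.5. AT2G16660 rose by 1.8 in OX7.5 roots (4.75, 4.31 and 4.52 in -S, 2.69, 2.77 and 2.74 in nS) and by 0.60 in WT roots (3.91, 3.96 and 3.76 in -S, 3.44, 3.22 and 3.18 in nS), and here the nS arrays of OX7.5 were lower than those of WT. For AT5G40590 the rises were 2.69 and 1.56. The remaining 2, rbcL, the large subunit of Rubisco, and AT2G07732, fell in OX7.5 roots alone. The values of rbcL were 8.65, 8.54 and 8.71 in -S and 9.42, 9.32 and 9.35 in nS in OX7.5, against 9.13, 8.80 and 8.81 in -S and 8.47, 8.54 and 8.90 in nS in WT. The fall of AT2G07732 (-0.65) fell short of the fold threshold without OX7.5 -S replicate 1 (-0.52) or nS replicate 2 (-0.53).

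**Figure D4:**
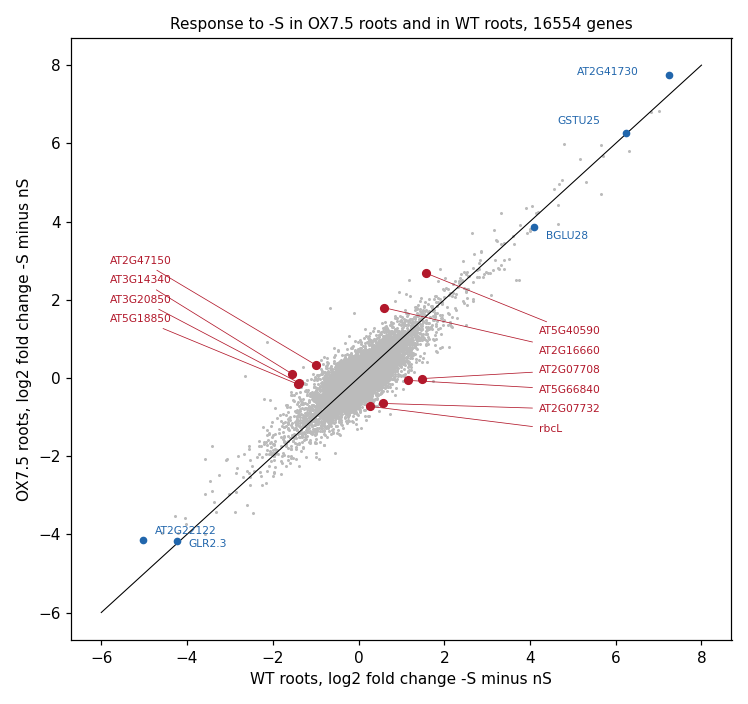
Log2 fold change (-S minus nS) of 16554 genes in OX7.5 roots (y axis) and in WT roots (x axis), with the line of equal change. Red points are the 10 genes whose change differed between the lines at an adjusted p under 0.05, and blue points are genes with large changes in both, such as AT2G41730 at 7.74 in OX7.5 and 7.24 in WT.

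The response of OX7.5 roots was then set against that of OX7.5 shoots. In shoots 952 genes (5.75%) rose and 916 (5.53%) fell. Of the root rises 19.8% were also called upwards in shoots, which was 26.9% of the shoot rises, and of the root falls 8.68% were also called downwards in shoots, 11.1% of the shoot falls. Calls of opposite sign were made for 26 genes that rose in roots and 56 that fell in roots. The difference between the organs itself passed at an adjusted p under 0.05 for 2708 genes (16.4%), 1304 with a higher and 1404 with a lower change in roots. Among the 1290 root rises 653 passed with a higher change than in shoots. Among the 1175 root falls 691 passed with a lower one. These genes were chosen by their root change, which is part of the difference, so both counts are a description.

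The 30 genes with the largest changes were chosen by their root values, so their organ differences are given as a description. Of the 15 rises 7 were also called upwards in shoots. The largest organ differences among the rises were those of AT2G38823, GSTU25 and AT5G38910, which rose by 5.97, 6.27 and 5.67 in roots and had log2 differences of -0.36, 0.04 and -0.18 in shoots, where none was called. Part of the mitochondrial group was shared, as AT2G41730 rose by 5.02, AT5G51440 by 3.14, AT2G21640 by 1.66 and NDB2 by 1.33 in shoots, whereas NDB4 and AT5G09570 had log2 differences of 0.44 and 0.07 there, and neither was called. On the falling side 1 of the 15, AT4G29905, also fell in shoots (-0.72). AT5G14120 was bright in nS roots, and its change of -4.0 in roots stood beside one of 0.00 in shoots. Opposite calls were seen for APS4, which fell by 1.33 on the log2 scale in roots and rose by 0.71 in shoots (organ difference -2.04, standard error 0.24, limma adjusted p = 1.7e-06), and for TMT1, which fell by 1.11 in roots and rose by 0.61 in shoots (organ difference -1.72, standard error 0.20, adjusted p = 1.3e-06). BGLU28 had a change of -0.01 in shoots. The ATG8 rises were not all of one kind, since ATG8E rose further in roots than in shoots (1.94 and 0.86, organ difference adjusted p = 0.035), whereas ATG8H rose by 1.14 in roots and by 1.55 in shoots, a difference that did not pass (-0.41, standard error 0.35).

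**Figure D5:**
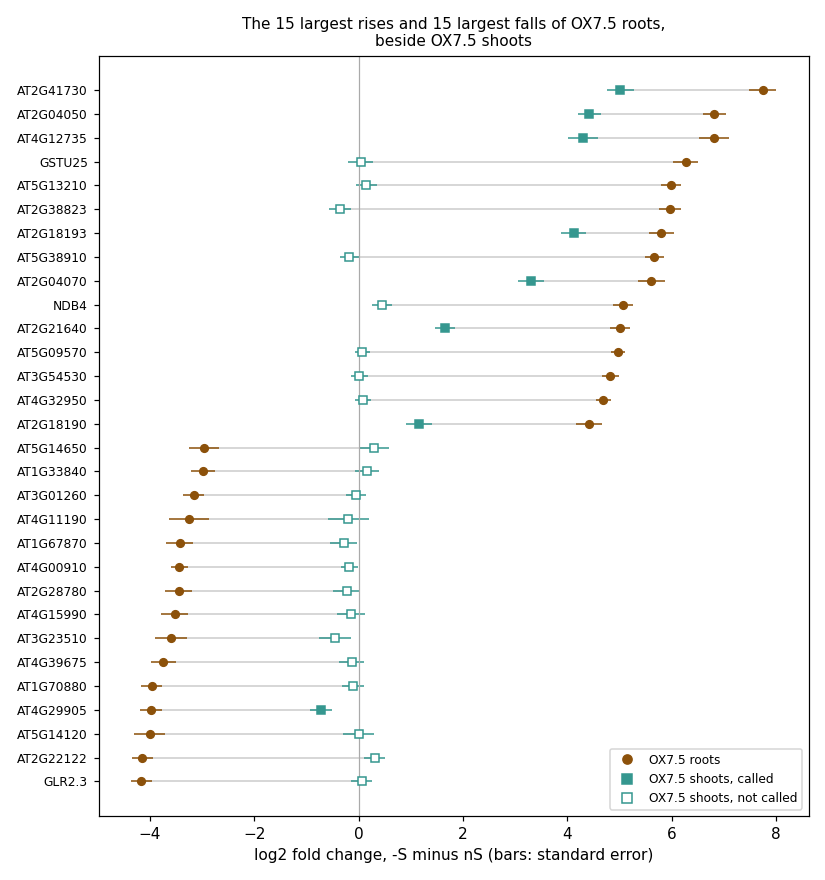
Log2 fold change (x axis, -S minus nS, with standard errors) of the 15 largest rises and 15 largest falls of OX7.5 roots (rows) in OX7.5 roots (brown circles) and OX7.5 shoots (green squares, filled where called). Of the 15 rises 7 were also called upwards in shoots, and of the 15 falls 1 was also called downwards.

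For several other lists few members were measured, and their counts stand beside 7.79% of all genes called upwards. Of 7 measured WRKY transcription factors 2 rose (28.6%). WRKY6 rose by 1.74 (6.29, 6.28 and 6.67 in -S, 4.82, 4.65 and 4.54 in nS, standard error 0.20, limma adjusted p = 3.4e-07), and WRKY41 by 0.86, a call lost without -S replicate 1 (adjusted p = 0.264) or any 1 nS array (adjusted p between 0.0667 and 0.119). BZIP60, a transcription factor of the unfolded protein response, rose by 1.24 (5.87, 5.84 and 6.19 in -S, 4.87, 4.88 and 4.44 in nS), whereas the ER chaperone gene BIP1 had a change of -0.12 that did not pass. Of 6 measured heat shock and chaperone genes, 4 measured abscisic acid genes and 3 measured root hair genes 0 were called. Of 5 measured iron deficiency genes 1 rose, AT3G12900, by 1.8 (4.76, 3.13 and 5.58 in -S, 3.28, 2.89 and 1.9 in nS, adjusted p = 0.048). Its groups overlapped, and its call was lost without -S replicate 1 or 3 or nS replicate 2 or 3 (adjusted p between 0.0824 and 0.261). Of 9 measured auxin genes 2 (22.2%) rose, the conjugating enzymes GH3.3 and GH3.1, by 1.17 and 0.71. The call of GH3.3 was lost in every fit that left out an array except -S replicate 2 (adjusted p between 0.0506 and 0.122), and that of GH3.1 without -S replicate 2 or 3 or nS replicate 2 or 3 (adjusted p between 0.0617 and 0.169). Of 71 measured defensin and LCR peptides LCR68 fell (-1.03). No member was measured for phosphate starvation, aquaporins, defence markers or low energy. A search by gene symbol or synonym found 0 ribosomal proteins, initiation factors, ABC transporters, receptor-like kinases, heat shock proteins and MYB factors. Such a search misses genes known only by their locus, so these counts of 0 do not show that no member was measured. The rise of cytoplasmic ribosomal protein genes that the paper reports in roots was not examined here. Among 5 measured genes that the paper names as hubs of protein interaction, AT4G30840 rose by 0.84 (4.68, 4.72 and 4.96 in -S, 4.06, 3.66 and 4.12 in nS), and AT5G46630, AT3G15130, TCP15 and AT5G45780 had log2 differences of 0.13, 0.14, -0.21 and -0.27, and none was called.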

How the data were processed

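RNA of 24 samples (2 lines, 2 organs, -S and nS, 3 replicates each) was read on Affymetrix arrays. RMA, run by the authors in Partek (versions not given in the sources used here), gave the deposited log2 signal of each probe set. RMA quantile normalizes arrays, so a shift common to most genes of an organ would be removed. Root and shoot arrays differ in their medians and may have been normalized separately. Gene names came from the platform annotation, updated through the TAIR10.1 gene table. Of 16554 genes 16418 were matched to that table, and 758 probe sets with several genes and 11079 with none were left out of the gene tests. R 4.3.3 and limma 3.58.1 fitted one mean for each of 8 groups (16 residual degrees of freedom) with empirical Bayes moderation and Benjamini-Hochberg adjustment over all genes. The line and organ differences were contrasts of the same fit, with no fold threshold. The fit was tested on simulated data. Spread was estimated from 3 arrays per group, and this number limits the precision.

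Named genes are the 15 largest rises and 15 largest falls among called genes without overlap of the arrays, 6 of each sign for the line and organ differences, every gene the paper names that has a value, up to 6 members of each list, and all measured members of the sulfur and glucosinolate lists. Genes given beyond this rule, such as further members of a family, were chosen after their values were seen, and the alternatives were not run for them. The members and lists were chosen with earlier results of these data known. Alternatives in the fit, the normalization, the probe sets and the arrays are given in the closing section. No sequence or coordinate is given.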

Additional observations from a re-analysis of the deposited data

Results flagged for a closer look

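The change in -S differed between OX7.5 roots and WT roots for 10 genes at an adjusted p under 0.05 (limma). With the change in WT roots subtracted, the differences were 1.67 for AT3G14340, 1.31 for AT2G47150, 1.27 for AT3G20850, 1.26 for AT5G18850, 1.2 for AT2G16660 and 1.12 for AT5G40590. They were -1.0 for rbcL, -1.21 for AT2G07732, -1.23 for AT5G66840 and -1.49 for AT2G07708. None of the 10 kept its call in every alternative run.

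The change differed between OX7.5 roots and OX7.5 shoots for 2708 genes. With the change in shoots subtracted, the differences of 6 genes named for a higher change in roots were 6.33 for AT2G38823, 6.23 for GSTU25, 5.84 for AT5G38910, 5.84 for AT5G13210, 4.89 for AT5G09570 and 4.81 for AT3G54530. Those of 6 genes named for a lower one were -4.45 for AT2G22122, -4.22 for GLR2.3, -4.0 for AT5G14120, -3.86 for AT1G70880, -3.6 for AT4G39675 and -3.44 for AT4G00700. AT4G00700 is the 1 of these whose difference came from a rise in shoots (3.12), since its change of -0.32 in roots did not pass. All 12 kept their calls in every alternative run.

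Probe sets with no gene in the annotation responded too. In a fit of every probe set 1905 of these 11079 probe sets (17.2%) passed the thresholds in OX7.5 roots, 959 upwards and 946 downwards, with changes of up to 5.70 and down to -4.88.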

How the results depend on the processing

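The 2465 genes called in OX7.5 roots, and the 2581 called with the thresholds of the methods, stayed within 1.5 times those numbers in the alternatives run, except that a fold change of at least 2 left 945 and 946, and that testing every probe set gave 4489 and 4712, as more features were tested. Leaving out 1 array gave 2300 to 2431 and 2599 to 2719 genes. Among the root groups same-numbered replicates did not deviate together across genes (r between -0.08 and 0.05). Same-numbered root and shoot arrays were not compared, and whether same-numbered samples were handled together was not tested. With the replicate number as a block 2461, 2588, 7 and 2661 genes were called for the response, the thresholds of the methods, the line difference and the organ difference. The line difference (10 genes) became 0 in root arrays alone, 6 without moderation, 26 with trended and robust moderation, and 0 to 85 with 1 array left out. The cause was not tested. The organ difference (2708) became 5128 over every probe set and 2224 to 2578 with 1 array left out. Of 261 genes with a response computed, 215 kept their side of the threshold in every alternative, 32 lost a call in at least 1, 14 gained one and 0 turned direction. Leaving out dim genes, which keeps fewer members, moved list medians to -0.0900 for glutathione S-transferases, 4.91 for xenobiotic detoxification, 0.35 for auxin and 0.10 for defensins. For the families found by gene symbol or synonym it moved them to 0.51 for cytochromes P450, 0.89 for peroxidases and 3.14 for UDP-glycosyltransferases. Signal near background cannot be told from absence here, which limits all changes from or to dim signals.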
